A study of Caenorhabditis elegans with 4 samples.

Results

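The regions described here are the DPY-26 peaks at the ends of the Caenorhabditis elegans X chromosome. They were chosen by position alone, from a peak list for the whole series, as the peaks on X with a midpoint in the first 1 Mb (up to base 1000000) or in the last 1 Mb (from base 16718897). The left end held 319 peaks and the right end 466, together 785 of the 8498 peaks on X and of the 9365 peaks in the list. The remaining 7713 X peaks, between the limits, are called the rest of X. Coordinates are on WormBase WS220, and the length of X was taken as 17718897, the largest X coordinate in any of the lists.

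The study profiled DPY-26 by chromatin immunoprecipitation and sequencing (ChIP-seq) in wild-type N2 embryos of mixed stages, kept at 20 °C and taken from a population of males and hermaphrodites. It comprised 2 ChIP samples made with an affinity-purified rabbit polyclonal antibody against DPY-26, and 2 input DNA samples of the same genotype, stage and population. Whether the ChIP replicates came from separate cultures is not given, so their spread may be technical. Whole embryos of both sexes and of several stages were pooled in each sample, so the lists cannot tell the sexes or stages apart. The 3 lists compared were the series-wide list and 1 list for each ChIP replicate, with 1725 peaks in replicate 1 and 3906 in replicate 2. Values for the input samples were not analysed here. Whether the series-wide list was called on reads pooled from the replicates is not given, so it is not treated as independent of them. How many reads lie behind each list is unknown.

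DPY-26 is a kleisin, the subunit that links the ends of the paired SMC proteins in condensin, a ring-shaped complex that shapes chromosomes. It belongs both to the mitotic condensin I and to the condensin at the core of the worm dosage compensation complex. In hermaphrodites, which carry a pair of X chromosomes, that complex reduces transcription from both to bring it near the output of the single X of males. It is recruited to X at dispersed high-affinity sites, called rex sites, and spreads from them to further sites along the chromosome.

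The first comparison asked whether peaks were as frequent at the ends as along the rest of X. The left end carried fewer peaks, with 319 per Mb against 491 per Mb in the rest of X, a ratio of 0.650. The right end lay close to the rest, with 466 per Mb and a ratio of 0.95. In replicate 1 the left end held 51 peaks per Mb against 84.7 in the rest of X, and in replicate 2 it held 149 against 209.7. The replicate lists thus gave left ratios of 0.602 (replicate 1) and 0.711 (replicate 2), which average 0.656 ± 0.0766 (SD, n = 2 lists). At the right end the ratio was 0.815 in replicate 1 (69 peaks per Mb) and 0.987 in replicate 2 (207 peaks per Mb), a mean of 0.901 ± 0.122 (SD, n = 2). The left deficit was thus larger than the spread between the replicates, whereas the right one was within it. With 2 replicate lists, a two-sided exact sign permutation test cannot give a p below 0.5, which was the value for both ends, so no difference between an end and the rest could pass a threshold.

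Counted from the left tip in windows of 1 Mb, the first of the 17 complete windows was the poorest in peaks, whichever list was counted. Its 319 series-wide peaks compared with 399 to 549 in the other windows. In replicate 1 its 51 peaks compared with 66 to 107, and in replicate 2 its 149 compared with 179 to 239. Counted from the right tip, the end window was the fourth lowest in the series-wide list (466 peaks against 425 to 557) and the lowest in replicate 1 (69 against 73 to 101). In replicate 2 it ranked 7 from the lowest, with 207 peaks against 171 to 230. The low rank of the right end was therefore not shared by the replicates.

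**Figure D1:**
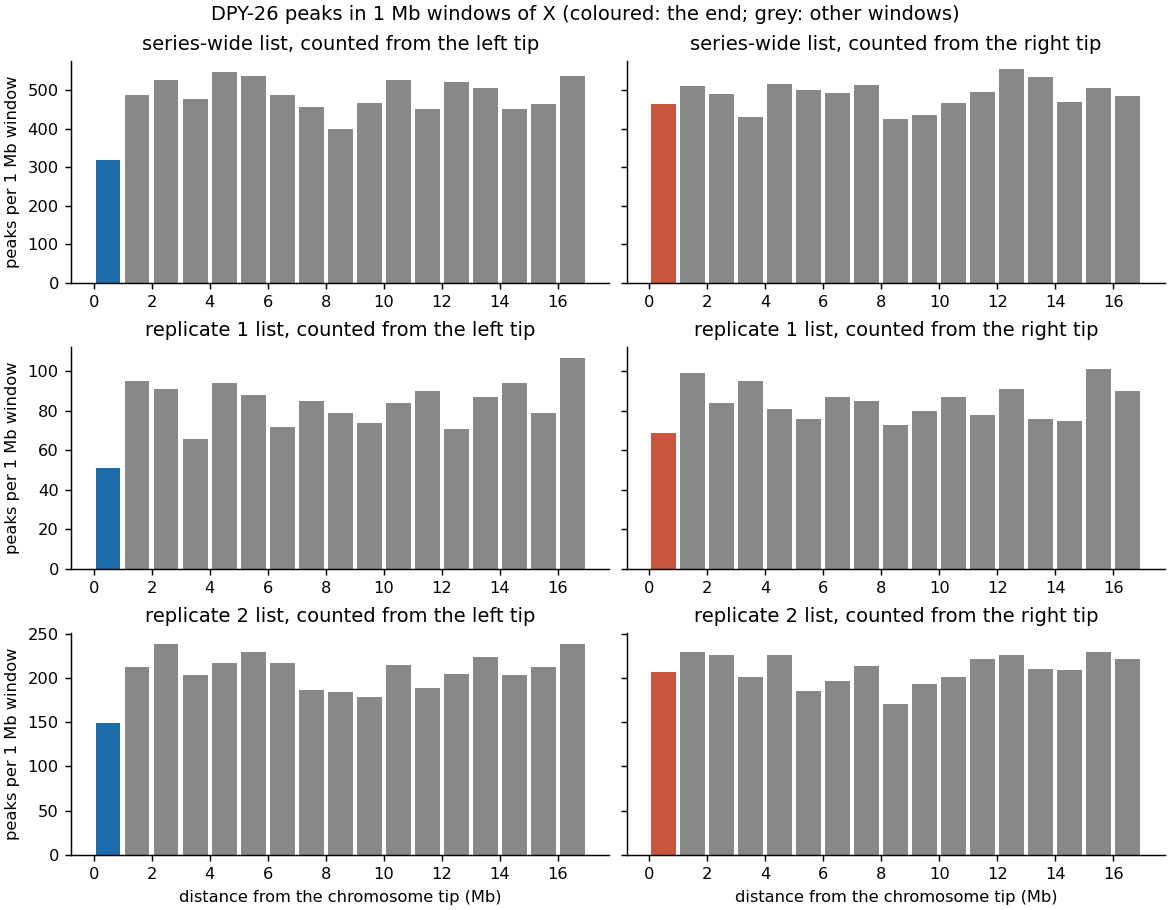
Peaks in complete windows of 1 Mb counted from the left tip (left column) and from the right tip (right column) of X, in the series-wide and both replicate lists. The x axis is the distance from the tip in Mb and the y axis the number of peaks, with the end window coloured. The left end window, at 319, 51 and 149 peaks, is the lowest bar in each list, while the right end window, at 466, 69 and 207 peaks, is lowest in replicate 1 alone.

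The low count at the left end was most marked in its first 300 kb, a limit set after the values were seen. In windows of 100 kb from the left tip, the series-wide list held 20, 12 and 10 peaks in the first 3 windows. All 3 were below each of the 157 windows of the rest of X, which held 27 to 76 peaks with a median of 49. The following windows held 29, 41, 31, 45, 39, 56 and 36 peaks, all within the range of the rest and all but the window of 56 below its median. The fewest peaks were thus in the window at X:200001-300000 and the most in that at X:800001-900000. Replicate 1 held 2, 1 and 3 peaks in the first 3 windows, against 2 to 19 in the rest of X. Replicate 2 held 7, 5 and 3, each below the lowest window of the rest, where the counts ran from 9 to 33. The right end showed no window below the range of the rest. From the right tip the series-wide windows held 44, 45, 40, 43, 43, 53, 42, 68, 46 and 42 peaks, all within the range of the rest, and 8 of the 10 were below its median. Right-end counts were 3 to 17 in replicate 1 and 17 to 24 in replicate 2, also within the range of the rest.

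In windows of 50 kb the same edge stood out. From the left tip the series-wide counts were 15, 5, 7, 5, 5 and 5 up to 300 kb, followed by 17 and 12. The lowest of the 314 windows of the rest of X held 11 peaks, so 5 of these first 6 windows lay below all of them. The window at the tip itself, with 15, did not. In replicate 2 the counts were 6, 1, 3, 2, 2 and 1, followed by 9 and 8, against 2 to 18 in the rest of X. In replicate 1 they were 1, 1, 1, 0, 2 and 1, followed by 1 and 4. Windows of the rest of X in replicate 1 held 0 to 13 peaks, and 11 of the 314 held none, so single windows of that list cannot show a deficit at this number of peaks.

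**Figure D2:**
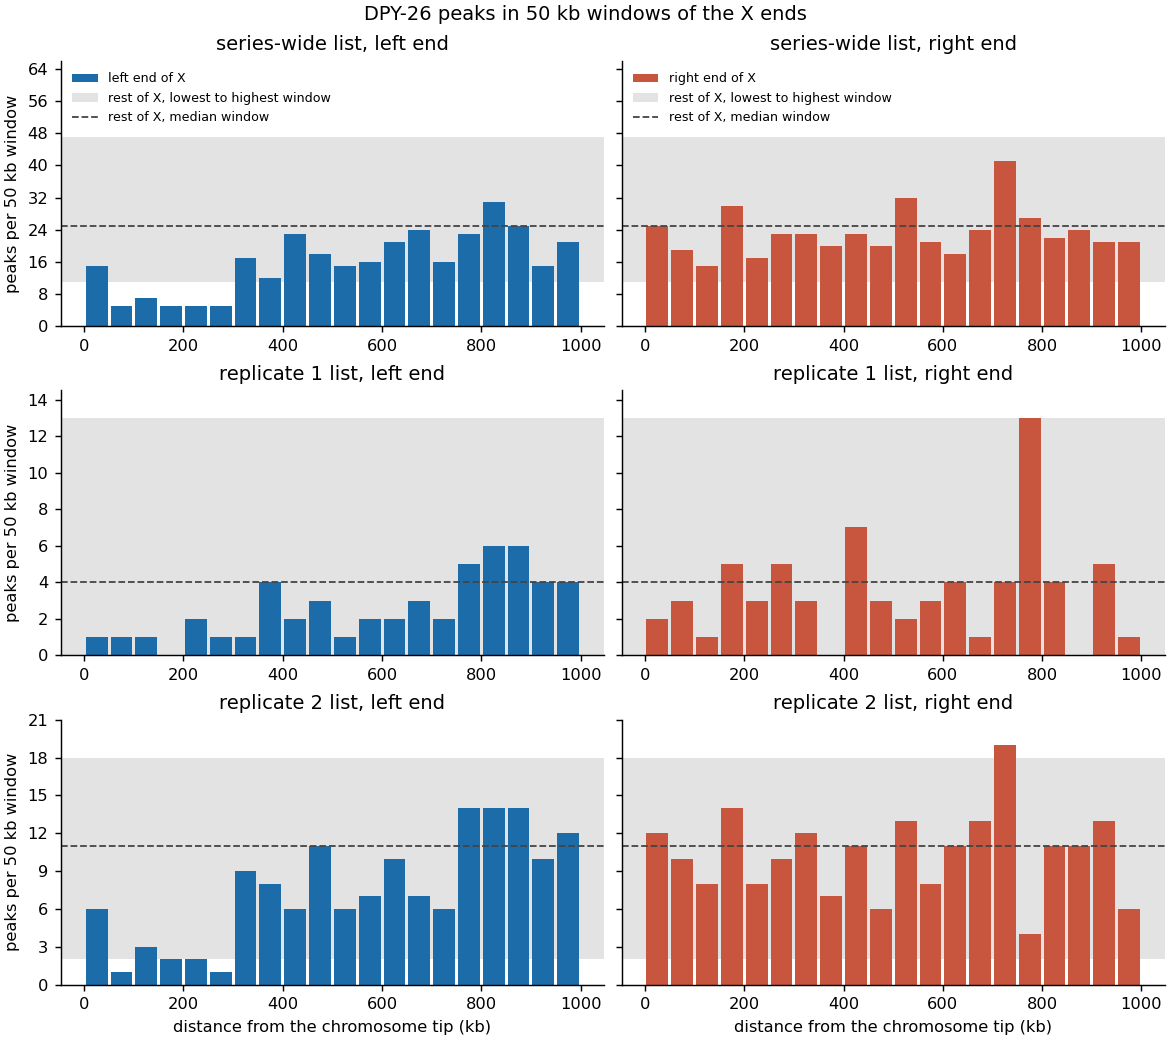
Peaks per window of 50 kb against the distance from the chromosome tip in kb, for the left end (left column) and the right end (right column) in each list. The grey band spans the lowest to the highest window of the rest of X and the dashed line its median. Bars of the left end from 50 to 300 kb lie below the band in the series-wide list (5 to 7 peaks against a lowest value of 11), and the right-end bars of that list stay inside the band.

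Taken as a block, the first 300 kb on the left held 42 series-wide peaks, or 140.0 per Mb, 0.285 times the density of the rest of X. The lowest of 52 blocks of the same length in the rest of X held 98 peaks and the median block 148.5. In replicate 1 the block held 6 peaks, against 14 to 37 in the rest, a ratio of 0.236. In replicate 2 it held 15, against 41 to 79, a ratio of 0.238. The ratio was thus 0.237 ± 0.00160 in the replicates (SD, n = 2). With 6 and 15 peaks behind the 2 ratios, this small SD does not measure their counting error, so it overstates the precision. From 300 kb to 1 Mb the left ratio was 0.806 for series-wide peaks, 0.759 for those of replicate 1 and 0.913 for those of replicate 2. The first 300 kb on the right had ratios of 0.876 (series-wide), 0.748 (replicate 1) and 0.986 (replicate 2). The left block was still denser in peaks than the autosomes, whose mean was 10.4 per Mb in the series-wide list.

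Long stretches without a peak were gathered in the same place. The widest peak-free stretch of X in the series-wide list lay on the left at X:66031-91007, 24977 bp long. The second widest, at X:240038-258517 (18480 bp), and the fourth widest, at X:261072-277605 (16534 bp), were also there. The widest of the rest of X was 17867 bp. Of the 20 widest stretches of X, 9 were in the left end, 8 of them in its first 300 kb, against 0 in the right end and 11 in the rest of X. In replicate 2, 7 of the 20 widest were in the left end and 6 in its first 300 kb, the longest at X:259064-299972 (40909 bp). In replicate 1 the widest stretch of X, 115467 bp at X:114333-229799, was there too, and the left end held 3 of the 20 widest, against 1 in the right end and 16 in the rest of X. The right-end one, at X:17641052-17712611, was 71560 bp long, began 6.3 kb from the tip and ranked 8 on X. In the series-wide list, the 3 widest of the right end were at X:17256674-17268192 (11519 bp), X:17577433-17586801 (9369 bp) and X:17285917-17294521 (8605 bp), none among the 20 widest. Neighbouring series-wide peaks were a median of 1715.5 bp apart at the left end (interquartile range 780.0 to 3423 bp), 1139 bp at the right end and 1076 bp in the rest of X (466 to 2241.5 bp). The median separation at the left end was 1.80 times that of the rest of X in replicate 1 and 1.45 times in replicate 2.

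The autosomes, which the dosage compensation complex does not regulate, have few peaks and were counted in the same way. The 2 ends of each of the 5 autosomes held 4 to 16 series-wide peaks each, on average 9.80 per Mb, against 10.5 per Mb in the rest of the autosomes, that is 0.936 times as many. For replicate 1, with 25 peaks at autosomal ends, it was 0.728 times, and for replicate 2, with 22, it was 0.688 times. The ratio of end to rest at the left end of X was below that of the pooled autosomal ends in the series-wide list (0.650 against 0.936). It was also below in replicate 1 (0.602 against 0.728), but not in replicate 2 (0.711 against 0.688). Single autosomal ends varied and held 0 to 5 replicate peaks. In the series-wide list, II held 4 on the left and 16 on the right, against 10.2 per Mb in its rest. V held 9 on the left and 4 on the right, against 9.62 per Mb. Some single autosomal ends thus lay further below their rest than the left end of X did. Whether X and autosomal ends differ was not tested.

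The second comparison asked how much of each end was covered and how peaks were scored. Peaks covered 12.7% of the left end and 18.2% of the right end, against 19.5% of the rest of X in the series-wide list. In replicate 1 the covered share was 3.53% on the left and 3.74% on the right, against 4.79% in the rest of X. In replicate 2 it was 24.4% on the left and 36.0% on the right, against 37.7%. The covered share of the left end was therefore 0.692 ± 0.0638 times that of the rest (SD, n = 2). That of the right end was 0.868 ± 0.123 times that of the rest. The median peak width was 296 bp at the left end, 294 bp at the right end and 304 bp in the rest of X. The median width of the ends was lower than that of the rest in both replicates as well, with differences of -3 bp (left) and -15 bp (right) in replicate 1 and of -64 bp (left) and -54 bp (right) in replicate 2.

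The score is the authors' own value for each peak. Its definition was not found in the labels or headers. Scores were ordered, grouped by threshold and summarised by medians within a single list. Between lists, only differences between an end and the rest of X were set side by side. The replicate lists and the series-wide list do not share a scale, since their highest scores were 3126.67 and 3190.85 against 236.34. Their lowest scores were 50.0 and 50.02 against 1.3. The median series-wide score was 6.06 at the left end (interquartile range 4.15 to 13.6) and 6.89 at the right end (4.29 to 14.1), against 6.82 in the rest of X (4.39 to 13.55). The left median was lower than that of the rest in both replicates too, at 144 against 147 in replicate 1 and 164 against 175 in replicate 2. Its difference from the rest, -0.76 in the series-wide list, changed sign with ends of 2 Mb (0.19) and among the highest-scoring 50% of X peaks (1.87). The right median lay above the rest in replicate 1 (162 against 147) and below it in replicate 2 (142 against 175), so it had no common direction (exact sign permutation over the 2 lists, p = 1).

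The share of high scores at each end was near that of all X. A score of at least 20 was held by 62 of its 319 peaks (19.4%, exact 95% interval 15.2% to 24.2%), against 16.6% of all X peaks. At the right end it was held by 71 of 466 (15.2%, 12.1% to 18.8%). Scores of at least 50 were held by 26 left peaks (8.15%, 5.39% to 11.7%) and 27 right peaks (5.79%, 3.85% to 8.32%), against 6.53% of all X peaks. The intervals hold the share of all X in each case and cover counting error only. Within the left end, most peaks with high scores lay beyond 300 kb. The first 300 kb held 1 peak with a score of at least 50 and 5 with a score of at least 20, which is 16.7 per Mb for scores of at least 20. From 300 kb to 1 Mb there were 25 and 57, which is 81.4 per Mb for scores of at least 20, against 81.2 per Mb in the rest of X. The right end held 73.3 such peaks per Mb in its first 300 kb and 70.0 per Mb beyond. The left 300 kb had few peaks of any score. Of its 42 peaks, 11.9% scored at least 20 (3.98% to 25.6%) and 2.38% at least 50 (0.0603% to 12.6%). Both intervals hold the share of all X, so a lower share of high scores among its peaks was not shown.

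**Figure D3:**
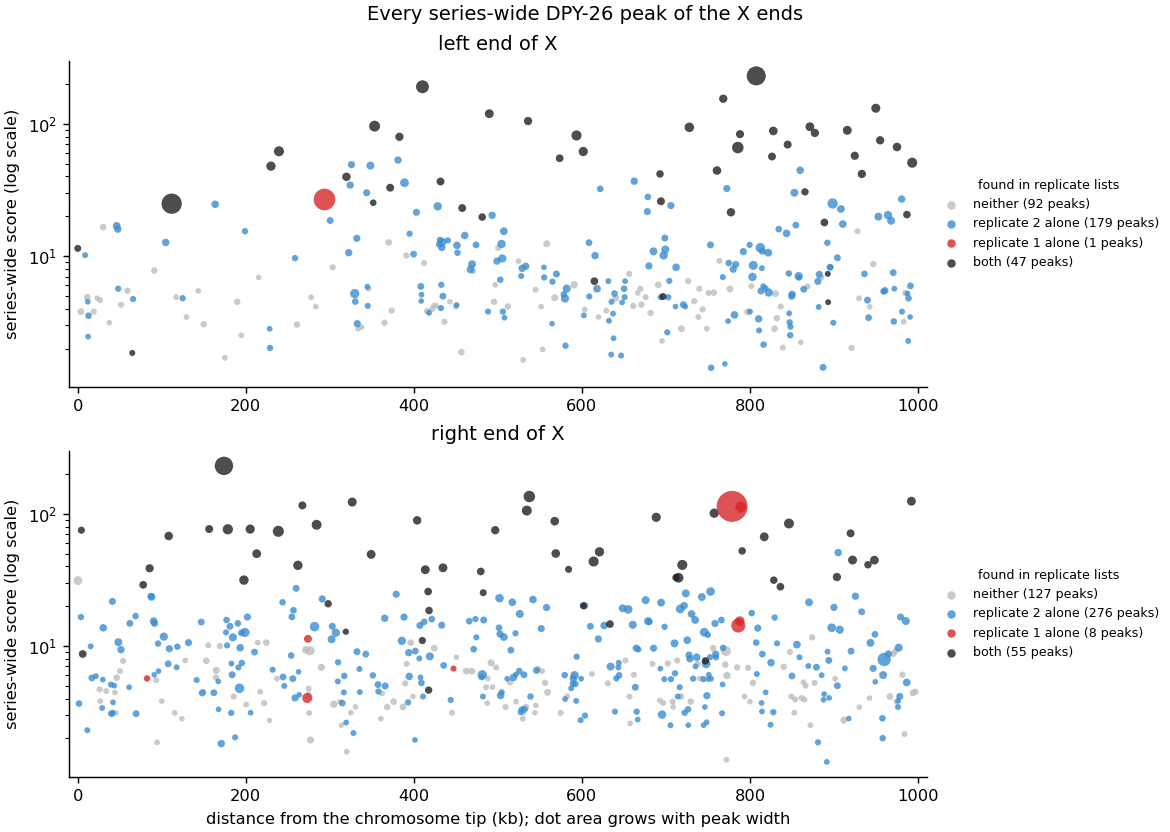
Every series-wide peak of the left end (top) and of the right end (bottom) by its distance from the tip in kb and its score on a log scale, with dot area growing with peak width and colour giving the replicate lists that overlap it. The left 300 kb holds 42 dots and 1 with a score of at least 50, and the widest dot, red and at the right end, was overlapped in replicate 1 alone.

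The highest-scoring peaks of the left end found in both replicates (overlapped by at least 1 bp in each list) lay at 410.3 to 949.7 kb from the tip. The first was at X:805308-809512, 4205 bp wide with a series-wide score of 229.85, which ranked 8 on X. It was overlapped by 3 replicate 1 peaks, the best with a score of 2780.75, and by 1 replicate 2 peak with a score of 3100. That score recurs in the replicate lists, on 34 peaks of replicate 2 and 16 of replicate 1, so it does not order those peaks. The second, at X:409357-411157, scored 190.25 and had replicate scores of 2767 (replicate 1) and 3100 (replicate 2). The others were at X:767851-768465 (score 154), X:949285-950053 (131) and X:489418-490148 (119), each with 1 peak in each replicate list. Their scores were 658, 1138 and 445 in replicate 1, and 1599.7, 1913 and 1300.5 in replicate 2.

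At the right end the highest-scoring peak found in both replicates was at X:17542884-17546802, 3919 bp wide and 174 kb from the tip. It had the same series-wide score as the left one, 229.85, with 2 replicate 1 peaks (best score 2997.5) and 1 replicate 2 peak with a score of 3100. That replicate 2 peak was 7573 bp wide, at X:17539444-17547016, and also covered a second series-wide peak at X:17539696-17540753. The next were at X:17180780-17182149 (score 135), X:16726512-16727244 (124), X:17391855-17392609 (122) and X:17451215-17451756 (115.5), each with 1 peak in each replicate. Their replicate 1 scores ran from 223 to 757 and their replicate 2 scores from 668 to 2120.3. Both ends thus held a peak among the highest-scoring of X, while the left one was 807 kb and the right one 174 kb from its tip.

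In the left 300 kb all replicate peaks can be given. Replicate 1 held peaks at X:1-360 (score 123), X:64854-65569 (68.1), X:109140-114332 (535), X:229800-230288 (134), X:239317-239787 (189) and X:289835-295339 (144). Replicate 2 overlapped the first 5 of these, with scores of 131, 81.8, 2186, 697 and 656, and had no peak at the last. The other replicate 2 peaks in the block scored 51.4 to 197. The only series-wide peak there with a score of at least 50 was at X:239031-240037 (61.9), followed by X:229612-230434 (47.8). Of the 42 series-wide peaks in the block, 21 were found in neither replicate list (50%, exact 95% interval 34.2% to 65.8%), against 26.9% of all X peaks. From 300 kb to 1 Mb, 71 of 277 were (25.6%, 20.6% to 31.2%). These shares are not matched for score. The median series-wide score was 4.84 in the block, against 6.82 in the rest of X. In the rest of X, replicate 2 overlapped 53.0% of peaks scoring below 5 and 99.2% of those scoring at least 50. Whether the share in the block differs at equal scores was not tested.

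A pair of peaks at least 4000 bp wide made up much of the covered bases in that block. The peak at X:109491-114280 was 4790 bp wide with a series-wide score of 24.9, and both replicates had a broad peak there (5193 bp in replicate 1 and 5927 bp in replicate 2). The peak at X:289807-295289 was 5483 bp wide with a score of 27.0 and was overlapped in replicate 1 alone. Their replicate 1 counterparts, 5505 and 5193 bp wide, were the widest replicate 1 peaks on X. They held 84.0% of the bases that replicate 1 peaks covered in the block. The covered share of the block was therefore 0.886 times that of the rest of X in replicate 1, and 0.142 times without them. In replicate 2 it was 0.253 times that of the rest with its 1 peak of that width and 0.200 times without it, and in the series-wide list 0.370 times with both and 0.194 times without them.

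The peaks nearest the left tip were at X:1-344 (score 11.4), X:3666-4006 (3.80), X:8823-9025 (10.15), X:11231-11561 (4.88) and X:12020-12172 (4.51). The first was found in both replicate lists, where it also began at base 1 (scores 123 in replicate 1 and 131 in replicate 2), the third and the fifth in replicate 2 alone and the other two in neither. On the right they were at X:17718169-17718897 (31.2), X:17717066-17717370 (3.67), X:17714833-17715100 (16.55), X:17714283-17714663 (75) and X:17712624-17713121 (8.70). The outermost was found in neither replicate list. It was the highest-scoring such peak of the right end, ahead of X:16844784-16845041 (11.6), while at the left end that was X:30238-30515 (16.55). The other right ones were found in replicate 2 alone (the second and the third) or in both. A peak from base 1 was not limited to X. Series-wide peaks began there on 4 of the 6 nuclear chromosomes (I, II, V and X), and replicate 1 peaks on 4 (I, II, IV and X). In replicate 2, X alone had such a peak. The right tips cannot be read in the same way, because the chromosome lengths were taken from the outermost peaks.

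The third comparison asked which series-wide peaks at the ends were overlapped in the replicate lists. The lists came from different versions of the peak caller, MACS for the replicates and MACS v2 for the series-wide list. Their thresholds are not given, so a peak found in neither replicate list may have fallen below a cut-off there. Found in both replicate lists (overlap of at least 1 bp in each) were 47 of the 319 left peaks (14.7%, exact 95% interval 11.0% to 19.1%) and 55 of the 466 right peaks (11.8%, 9.02% to 15.1%), against 15.8% of all X peaks. In the rest of X the share was 16.05% (15.2% to 16.9%). Replicate 2 alone overlapped 179 left peaks (56.1%) and 276 right peaks (59.2%), against 56.7% of all X peaks. Neither list overlapped 92 left peaks (28.8%) and 127 right peaks (27.3%), against 26.9% of all X peaks. The left shares were near those of all X, and the sign of the left difference from the rest in peaks found in both (-1.32 percentage points) turned to 1.48 with midpoints within 200 bp as the criterion. The right share found in both was lower than that of the rest, with a difference of -4.25 percentage points (end minus rest). Taken singly, the difference was -3.11 points for overlap with replicate 1 and -1.59 points for overlap with replicate 2.

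Most series-wide peaks with high scores were overlapped in both replicate lists at both ends. The series-wide list may rest on the same reads, so this overlap is not recurrence in a separate sample. Of peaks scoring at least 50, 25 of 26 were found in both replicates at the left end and 24 of 27 at the right end, against 97.0% of 502 in the rest of X. The left exception was at X:380991-381419 (53.2), found in replicate 2 alone. Those on the right were at X:16813800-16814244 (50.8, replicate 2 alone), X:16929273-16930546 (112, replicate 1 alone) and X:16934429-16945936 (113.54, replicate 1 alone). At scores from 20 to 50 the shares were 38.9% of 36 left peaks (23.1% to 56.5%) and 54.5% of 44 right peaks (38.85% to 69.6%), against 59.9% of 775 in the rest of X (56.3% to 63.3%). From 10 to 20 they were 3 of 49 left peaks (6.12%, 1.28% to 16.9%) and 4 of 88 right peaks (4.55%, 1.25% to 11.2%), against 15.1% of 1356 (13.25% to 17.1%). Below 5, the shares were 2.48% on the left and 0.685% on the right, against 0.668% in the rest of X. Differences within these score ranges rest on few end peaks and were not tested.

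**Figure D4:**
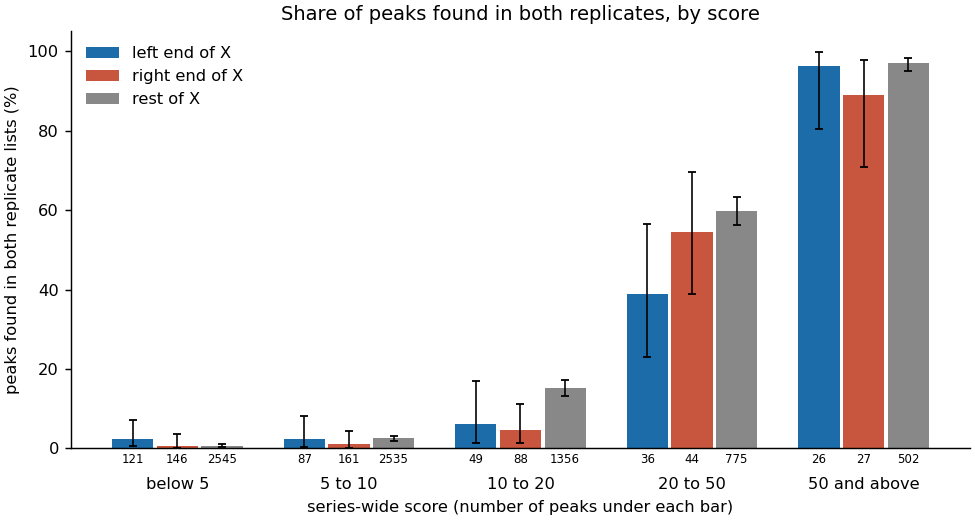
Share in percent of series-wide peaks overlapped in each of the replicate lists (y axis) by range of the series-wide score (x axis) for the left end, the right end and the rest of X, with exact 95% intervals as error bars and the number of peaks under each bar. Shares at scores of 50 and above are 96.2%, 88.9% and 97.0%, and from 10 to 20 they are 6.12%, 4.55% and 15.1%.

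Seen from the replicate lists, replicate 1 peaks recurred less at the right end. Of 51 left-end replicate 1 peaks, 50 were overlapped by a replicate 2 peak (98.0%, 89.55% to 99.95%), against 96% of all replicate 1 X peaks. At the right end 55 of 69 were (79.7%, 68.3% to 88.4%), and 11 of the 14 that were not lay in a single stretch described below. The interval does not allow for such grouping of neighbouring peaks. In the other direction, 46 of 149 left-end replicate 2 peaks (30.9%, 23.6% to 38.95%) and 50 of 207 right-end ones (24.2%, 18.5% to 30.6%) were overlapped by replicate 1, against 32.3% of all replicate 2 X peaks. The counts per 100 kb window were correlated between replicates at the left end (Pearson r = 0.923, 10 windows) and hardly at the right end (r = 0.0319, 10 windows), with r = 0.350 over the 157 windows of the rest of X. These are descriptions over windows of the same 2 lists. At the left end both lists had their lowest counts in the first 3 windows, with replicate 1 at 3 again in the window from 500 to 600 kb.

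Of the 14 right-end replicate 1 peaks that replicate 2 did not overlap, 11 lay in a single stretch, X:16928779-16950071, 769 to 790.1 kb from the right tip. This stretch of 21293 bp between neighbouring replicate 2 peaks was singled out after its values were seen. Its replicate 1 peaks lay within X:16929308-16944200 and scored 53.1 to 1783, with a median of 162. The highest of them, at X:16929308-16930600, scored 1783.3, and that at X:16931155-16932181 scored 981. The series-wide list held 9 peaks inside the stretch, which together covered 84.6% of it, and replicate 1 peaks covered 28.6%. Among them was the widest series-wide peak of X, at X:16934429-16945936, 11508 bp wide with a score of 113.54, which spanned 6 replicate 1 peaks. The widest peak in the rest of X was 9571 bp.

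**Figure D5:**
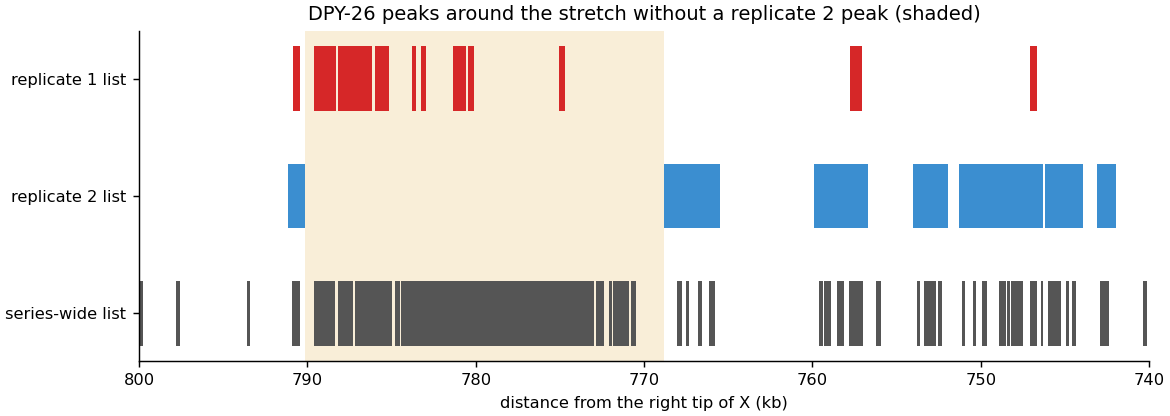
Peaks of each list (rows) around the shaded stretch of the right end that holds no replicate 2 peak, by distance from the right tip of X in kb, drawn to scale with the tip to the right. Replicate 1 has 11 peaks inside the shaded 21293 bp and replicate 2 none, while series-wide peaks cover 84.6% of it.

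The 50 kb window 750 to 800 kb from the right tip, which contains the stretch, held 13 peaks in replicate 1, as many as the highest window of the rest of X, and 4 in replicate 2. The adjoining window, 700 to 750 kb from the tip, held 19 replicate 2 peaks, above the highest window of the rest (18), 41 series-wide peaks and 4 replicate 1 peaks. The 100 kb window that contains both, X:16918897-17018896, was the fullest of the right end, with 68 peaks, and the emptiest was X:17418897-17518896, with 40. Without the 11 peaks, 55 of 58 right-end replicate 1 peaks were overlapped by replicate 2 (94.8%). That share had to rise, because the stretch was defined by its lack of replicate 2 peaks. It shows only where the peaks without overlap lay, and no such gap was left out of the rest of X. The density ratio of the right end in replicate 1, which had to fall, was 0.685 instead of 0.815 over the same 1 Mb. The share of series-wide right-end peaks found in both replicates changed little without the stretch (55 of 457, 12.0%, 9.20% to 15.4%). The covered share of the right end was 16.8% without it and 18.2% with it. The right end was not alone in this. Another replicate 2 gap with 11 replicate 1 peaks lay in the rest of X at X:7349271-7368990, and the next held 5.

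Broad peaks, here those of at least 1000 bp, made up a similar share of the peaks at the ends and on all of X. They numbered 10 at the left end (3.13%, 1.51% to 5.69%) and 11 at the right end (2.36%, 1.18% to 4.18%), against 2.95% of all X peaks. Per Mb there were 10 at the left end and 11 at the right end, against 14.6 in the rest of X. Of the left ones, 8 were found in both replicates, 1 in replicate 1 alone and 1 in replicate 2 alone. Of the right ones, 6 were found in both, 4 in replicate 1 alone and 1 in replicate 2 alone. In the rest of X, 177 of 230 were found in both (77.0%) and 16 in replicate 1 alone (6.96%). The right-end peaks found in replicate 1 alone were the 3 in the stretch above and a low-scoring one at X:17445194-17446212 (4.05).

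The peaks next to the 1 Mb limits were these. On the left, the last peak inside was at X:992449-993459 (score 50.7, found in both replicates) and the first outside at X:1001045-1001283 (5.66, in neither). On the right, the last inside was at X:16721923-16722169 (4.51, in neither) and the first outside at X:16717967-16718262 (6.06, in neither).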

How the data were processed

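Peak lists of the 2 ChIP replicates and of the series as a whole were analysed. BWA, an aligner, and the build ce10 are named in the submitters' processing notes, per the labels. Peaks were called with MACS (replicates) or MACS v2 (series-wide list) on WormBase WS220, per the file headers and source column. The deposited score was used as the authors' caller wrote it, beside each peak's coordinates. Versions, thresholds, the use of input and any pooling: not given in the sources used here. Without read counts the depth per sample is unknown, and intervals cover counting error only.

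Lists were processed with scipy 1.17.1, pandas 2.3.3 and numpy 2.4.6 under Python 3.11.15. Peaks were assigned to windows by midpoint, and covered bases were counted once. Overlap meant at least 1 bp. Shares have exact Clopper-Pearson 95% intervals. Neither peaks nor windows were treated as replicates or resampled. An exact sign permutation test used the 2 replicate lists. Counting and overlap were checked on simulated data. The named regions are, for each end, the 5 peaks nearest the tip, the 5 highest-scoring found in both replicates, the highest-scoring found in neither, the fullest and emptiest 100 kb windows, the 3 widest peak-free stretches and the peaks next to the 1 Mb limit. Other regions were chosen after their values were seen. Members, lists and limits were chosen with earlier results of these data known. Alternatives were each replicate list, ends of 0.5 and 2 Mb, the highest-scoring 50% of X peaks, merging within 500 bp, a narrower rest of X and other overlap definitions. Genes and sequences are not given, since no annotation or genome of WS220 was used here.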

Additional observations from a re-analysis of the deposited data

How the results depend on the processing

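Of 89 alternative values over the end minus rest differences (ratios for peak density), 81 kept their direction and 53 moved by less than the SD between the 2 replicate lists. Because the lists score on different scales, the median score of a replicate list was judged relative to the median of its rest of X, and the SD likewise. The replicate lists that gave the SD are also counted among the alternatives. For some results the SD exceeded the difference itself, so staying within it says little. This was so for the left covered share (SD 8.52 against a difference of -6.77 percentage points) and the left median width (43.1 against -8 bp). It was also so for the right median score (1.39 against 0.07) and the right median width (27.6 against -10 bp). For the right density ratio, the SD of 0.122 was larger than the distance of the ratio from 1. None of the alternative values carries a test, and the cause of the changes was not tested. Both density ratios stayed below 1 throughout, the left one at 0.458 with ends of 0.5 Mb, 0.823 with ends of 2 Mb and 0.806 without its first 300 kb, and the right one at 0.815 in replicate 1 and 0.999 with ends of 2 Mb. The left covered share stayed below the rest throughout. The right covered share differed from the rest by -1.71 percentage points in replicate 2, -3.78 with ends of 0.5 Mb, 0.656 with ends of 2 Mb, -0.493 without its first 300 kb and -2.67 without the stretch that lacks replicate 2 peaks. The left difference in median score (-0.76) was -2.80 in replicate 1 and -10.8 in replicate 2, each on its own scale. It was -0.305 with ends of 0.5 Mb, 0.19 with ends of 2 Mb, 1.87 in the highest-scoring 50%, -0.425 after merging and -0.36 without the first 300 kb, so its sign was not stable. Differences in median width were -64 bp (left) and -54 bp (right) in replicate 2, -52 and -40 bp after merging, and -52 bp on the right in the highest-scoring 50%. The left difference in the share found in both replicates (-1.32 points) was -2.47 with ends of 0.5 Mb, -0.289 with 2 Mb, -2.66 in the highest-scoring 50%, -1.90 after merging and -0.888 without the first 300 kb. It was -0.590 where 50% of a peak had to be covered and 1.48 with midpoints within 200 bp. The right one (-4.25 points) was -2.37 with 0.5 Mb, -1.10 with 2 Mb, -8.26 in the highest-scoring 50% and -1.82 with midpoints within 200 bp. Leaving out a replicate gave -1.77 to -1.59 on the left and -3.11 to -1.59 on the right. Other changes of sign were the left median width without the first 300 kb (1 bp), the right median width with ends of 2 Mb (4 bp) and the right median score (0.07) in replicate 2 (-33.1, against 14.65 in replicate 1, each on its own scale) and without the first 300 kb (-0.05). The alternatives without the first 300 kb and without the stretch were chosen after seeing the data. No paired analysis was possible because input samples had no peak list here and the 2 ChIP samples form a single group. The read depth behind these counts is unknown, and replicate 1 has few peaks, 51 at the left end and 69 at the right end.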
